A study of Rattus norvegicus with 10 samples.

Results

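Complement is a cascade of proteins that tags cells and immune complexes for removal. The classical pathway starts when C1q, built from the A, B and C chains encoded by C1qa, C1qb and C1qc, binds antibody on a target. C2 and its homolog factor B (Cfb) supply the catalytic parts of the enzymes that cleave C3, properdin (Cfp) stabilizes the alternative pathway enzyme, and the receptors C3ar1 and C5ar1 sense the released fragments C3a and C5a. Most complement protein in plasma comes from the liver, whereas macrophages make C1q and many other components locally. The glomerulonephritis studied here is set off by antibody bound to the glomerular basement membrane, a setting in which complement is commonly studied.

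The transcripts of these 9 genes, listed by name as complement components and receptors with earlier results of these data known, were followed in splenic M2 macrophages, 9 of the 9003 genes that the expression table holds. RNA-seq libraries came from WKY/NCrj rats. The methods give female rats of 7 to 12 weeks for the nephritis model and do not separately state the sex or age of the control rats. The 4 groups were control rats in the physiological condition (control, n = 2), rats with glomerulonephritis and no cell treatment (GN, n = 2), and macrophages sorted into positive (EV+, n = 3) and negative (EV-, n = 3) fractions from nephritic rats given human adipose-derived mesenchymal stem cells (ASCs). Nephritis was induced with TF78, a mouse monoclonal antibody, in GN, EV+ and EV- rats, and only the rats behind EV+ and EV- received ASCs. The ASCs carried the membrane dye DiD, so EV+ means dye-positive macrophages, and EV- means dye-free macrophages of rats treated in the same way. From microscopy, the paper reads most of the dye on leukocytes as ASC-derived extracellular vesicles (EVs). It reads a small part as engulfed ASCs, and a sort on the dye does not separate the 2. EV+ and EV- were thus separated by the sort and not by separate treatment, and each differs from GN by ASC administration as well. No group received the dye or a cell infusion without nephritis.

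The libraries held between 19270515 and 26617093 reads on the listed genes. Pan-macrophage markers were abundant in every library, with Csf1r between 5800 and 8155 counts per 1000000 reads (CPM) and Cd68 between 1163 and 1466 CPM. Cd163 and Mrc1, markers commonly used for M2 macrophages, lay between 0 and 1.81 CPM. The sum of 4 of 8 listed monocyte markers was 3249 to 4204 CPM over all libraries. Most of it came from Plac8 (2764 to 3754 CPM), with Cx3cr1 at 374 to 477 CPM. EV- replicate 1 stood apart by transcripts of cytotoxic lymphocytes. The sum of 12 listed NK and T cell markers was 1037 CPM in that library, against 222 to 232 CPM in control, 287 to 295 CPM in GN and 276 to 353 CPM in EV+. The lowest sum among EV- libraries was 365 CPM. Outside EV- replicate 1 most of the sum came from Cd8a, which lay between 199 and 333 CPM over all libraries. The cytotoxic genes Prf1, Nkg7 and Gzma were nevertheless higher in every EV- library than in any other library. Prf1 was at 335, 51.4 and 24.5 CPM in EV- and at most 18.4 CPM elsewhere. Of the other lists, 4 of 9 B cell markers had a row, Cd79a had none, and no erythroid or platelet marker had a row. In bulk RNA a change in the number of expressing cells and a change in RNA per cell cannot be told apart.

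C2 was the only one of the 9 genes that changed in the main test. It approximately doubled with nephritis and stayed high in both fractions of ASC-treated rats. Its calls in GN and in EV- against control were lost when certain single libraries were left out. The C2 difference between EV+ and EV- macrophages did not pass that test (adjusted p = 0.783, limma). It passed only in fits that treat same-numbered libraries as pairs (adjusted p = 0.0463, limma, over the 10 libraries). That pairing was taken from the data. EV+ was above EV- in all 3 same-numbered pairs of libraries for 5 of the 9 genes, C2 among them, beside 13.7% of all genes. The 3 C1q chains were highest in the GN libraries, at low levels that did not pass the test. Cfb, the gene that lies next to C2, had no called difference from control, and C3, Cfp, C3ar1 and C5ar1 varied within narrow ranges. A gene was called at a Benjamini-Hochberg adjusted p under 0.1 over all 9003 genes in limma, fitted to log2(CPM + 1) over the 10 libraries. Differences and intervals below are on that scale, which understates changes of low genes.

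**Figure D1:**
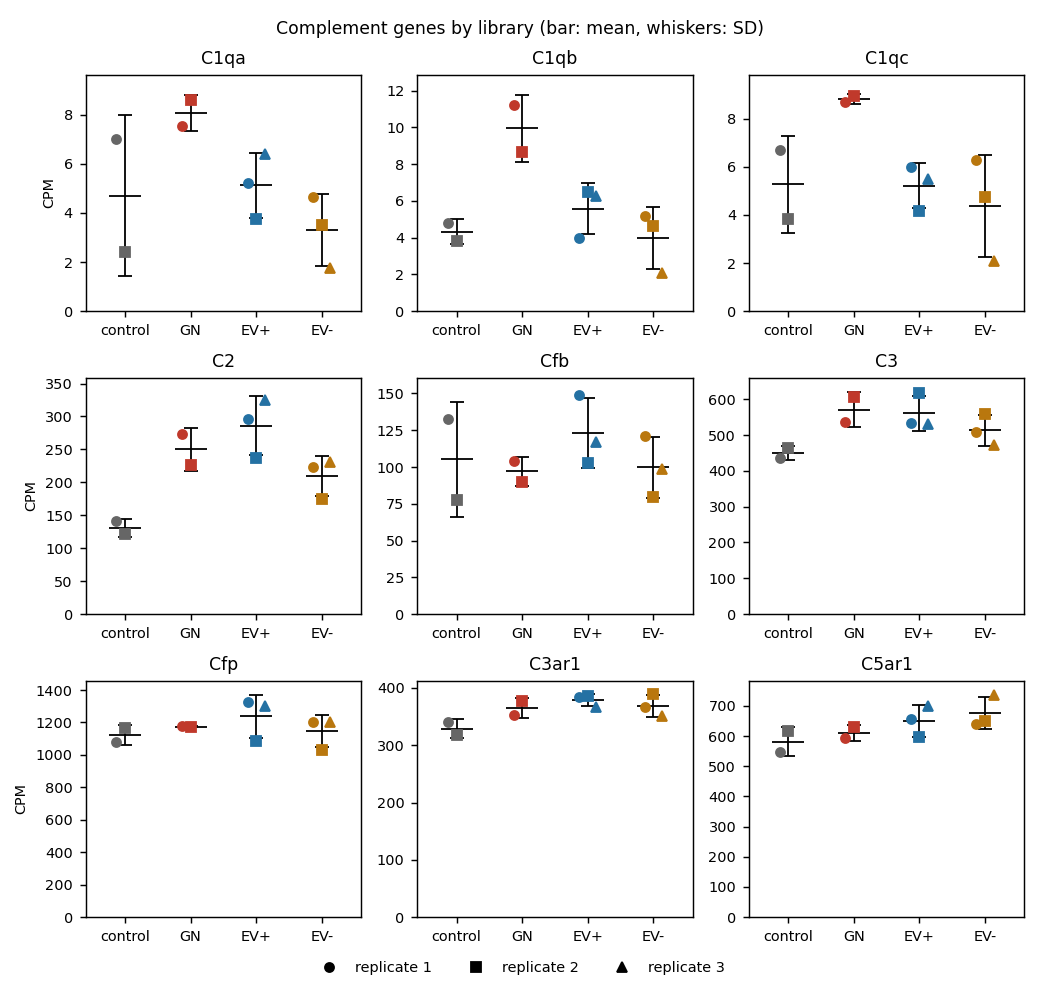
Level in CPM (y axis, linear from 0) of each of the 9 complement genes in every library, by group (x axis). Symbols mark replicate numbers, horizontal bars the mean and whiskers the SD; the C1q chains peak in GN, and C2 is lowest in the 2 control libraries at 141 and 121 CPM.

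Of the 9 genes, the C1q chains had the widest spread between libraries. C1qa, which encodes the A chain, was at 7.01 and 2.39 CPM in control, 7.53 and 8.59 CPM in GN, 5.24, 3.75 and 6.38 CPM in EV+, and 4.67, 3.52 and 1.75 CPM in EV-. C1qb, the B chain, was at 4.82 and 3.84 CPM in control, 11.2 and 8.66 CPM in GN, 3.98, 6.48 and 6.25 CPM in EV+, and 5.20, 4.64 and 2.06 CPM in EV-. C1qc, the C chain, was at 6.70 and 3.84 CPM in control, 8.68 and 8.96 CPM in GN, 5.98, 4.17 and 5.49 CPM in EV+, and 6.27, 4.74 and 2.10 CPM in EV-. For all 3 chains both GN libraries were above the other 8 libraries, and control, EV+ and EV- overlapped. This placement, GN libraries above all other libraries, was seen in 3 of the 9 complement genes and in 3.13% of all genes. The 3 chains are parts of 1 protein and neighbor each other in the genome, so they are not separate observations.

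None of the C1q differences passed the threshold. C1qb, the chain with the widest difference, was 1.04 higher in GN than in control on the log2 scale (SE 0.321, 95% interval 0.35 to 1.73, adjusted p = 0.196, limma). It was 1.20 lower in EV- than in GN (SE 0.293, interval of the difference -1.83 to -0.57, adjusted p = 0.186, limma), and C1qa and C1qc differed in the same direction with adjusted p = 0.358 and 0.400. EV+ lay between these groups, at -0.75 against GN for C1qb (adjusted p = 0.647, limma). Each chain rested on 45 to 285 reads per library. EV- replicate 3 was the lowest library for each chain. Without that library the C1qb difference between GN and control had an adjusted p of 0.0800 and was called.

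Summed over the 3 chains, C1q was at 14.3 ± 5.99 CPM in control, 26.8 ± 0.875 CPM in GN, 15.9 ± 1.95 CPM in EV+ and 11.6 ± 5.22 CPM in EV- (SD, n = 2, 2, 3 and 3). The spread within control and within EV- was wide, since the control sums were 18.5 and 10.1 CPM and the EV- sums 16.1, 12.9 and 5.91 CPM. The chains moved together over the 10 libraries. As a description, Pearson's r of log2(CPM + 1) was 0.943 for C1qa and C1qc, 0.830 for C1qb and C1qc and 0.799 for C1qa and C1qb, between genes measured in the same libraries. The ratio of C1qa to C1qb ranged from 0.578 to 1.46, with no difference between GN and control beyond the spread (exact permutation p = 1, two-sided). Of the 12 macrophage markers with a row, Vcam1, an adhesion receptor of splenic red pulp macrophages, was also highest in both GN libraries, at 6.11 and 8.74 CPM against 0.917 to 4.83 CPM in the others. The remaining red pulp markers on the list did not share that placement, with Hmox1 at 139.7 to 265 CPM, Spic at 2.61 to 6.82 CPM and Slc40a1 at 0.623 to 2.21 CPM over all libraries. The sum of 5 of 7 dendritic cell markers was 39.1 to 40.2 CPM in GN and 28.4 to 37.4 CPM in the other libraries. Most of it came from Zbtb46, at 31.9 and 30.8 CPM in GN but also 31.8 CPM in EV+ replicate 2. Flt3, another dendritic cell marker of the list, was highest in EV- replicate 1. The part of such cells in the C1q levels was not tested.

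In RefSeq gene order C1qb, C1qc and C1qa are consecutive, with no gene between them. The 250 bases before the annotated start of C1qa and C1qb are shown because these chains varied together and both have an entry in the RefSeq promoter table for GRCr8, a newer build than the rn6 used for alignment. The table matched 5 of the 9 genes, namely C1qa, C1qb, C3, Cfp and C3ar1. Both sequences are 5′ to 3′ on the gene's strand, at chr5:154419934-154420183 (minus strand) for C1qa and chr5:154407828-154408077 (minus strand) for C1qb. Capitals mark matches, on either strand, to GAGGAA, a form of the core of sites for the myeloid factor PU.1.
C1qa: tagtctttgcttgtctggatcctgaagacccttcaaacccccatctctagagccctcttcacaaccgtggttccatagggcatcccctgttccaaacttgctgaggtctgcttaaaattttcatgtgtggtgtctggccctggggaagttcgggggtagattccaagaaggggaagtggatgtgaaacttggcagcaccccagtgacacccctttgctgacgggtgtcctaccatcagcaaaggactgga
C1qb: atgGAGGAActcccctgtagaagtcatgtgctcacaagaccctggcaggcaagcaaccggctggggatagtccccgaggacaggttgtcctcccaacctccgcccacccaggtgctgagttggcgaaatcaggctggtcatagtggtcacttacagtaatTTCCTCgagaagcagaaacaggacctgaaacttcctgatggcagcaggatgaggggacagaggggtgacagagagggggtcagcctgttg
C1qb held 2 matches to these letters, starting at -247 and, on the opposite strand, at -90 from the start, and C1qa held none. Other forms of such sites were not sought. Of 33469 promoter windows of this length, 23.3% held this motif. The AP-1 motif TGANTCA, which reads the same on both strands, was found once in the windows of Cfp and C3ar1 (6.34% of all windows), where it overlapped no PU.1 match. The interferon-response motif AANNGAAA (23.3% of all windows) and the kappaB-like motif GGANNTTCC (3.36% of all windows) had no match in the 5 windows. A match of letters is a description of the window only.

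C2, the classical pathway protease that completes the C3 convertase, was at 141 and 121 CPM in control, 273 and 227 CPM in GN, 296, 237 and 326 CPM in EV+, and 223, 175 and 232 CPM in EV-. Every nephritic library was above both control libraries. GN overlapped with both ASC fractions, and the lowest EV+ library was above the highest EV- library. The group means were 131 ± 13.7, 250.1 ± 33.1, 286 ± 45.1 and 210.0 ± 30.6 CPM (SD, n = 2, 2, 3 and 3).

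C2 rose in GN against control by 0.92 on the log2 scale (SE 0.156, 95% interval 0.59 to 1.26, adjusted p = 0.0111, limma), a 1.90-fold change. It was 1 of the 9 complement genes called in that comparison, beside 1.75% of all genes. Against the same 2 control libraries C2 also rose in EV+ by 1.11 (SE 0.143, adjusted p = 0.000595, limma) and in EV- by 0.67 (SE 0.143, adjusted p = 0.0314, limma). In each of these 2 comparisons C2 was again the 1 complement gene called, beside 3.63% of all genes for EV+ and 2.84% for EV-. In the test for any difference among the 4 groups C2 was also the only one of the 9 called (adjusted p = 0.00379, limma), beside 2.57% of all genes. The 3 comparisons share their control libraries, and the exact permutation test cannot go below p = 0.333 for 2 against 2 or p = 0.2 for 2 against 3 libraries.

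The call of C2 in GN against control was lost without control replicate 2 (0.82, adjusted p = 0.111), without GN replicate 1 (0.79, adjusted p = 0.160) and without the intensity trend of limma (adjusted p = 0.123). The call in EV- against control was lost without control replicate 2 (adjusted p = 0.304), without EV- replicate 1 (0.62, adjusted p = 0.110) and without the trend (adjusted p = 0.155), whereas the call in EV+ against control stayed with any 1 library left out. The summed level of 12 of the 15 listed macrophage markers, most of it from the lysozyme gene Lyz2, was 25171 to 25604 CPM in control and 28911 to 31129 CPM in the nephritic libraries. The sum of 8 of 13 neutrophil markers, most of it from Csf3r, was 549.8 to 556 CPM in control against 611 to 745 CPM in nephritic libraries, with S100a9 at 9.34 to 19.0 CPM, Camp at 7.62 to 13.2 CPM and the other 5 at or below 4.76 CPM. The sum of the listed B cell markers, most of it from Cd79b, was 89.4 to 111 CPM in control and 44.6 to 75.7 CPM in nephritic libraries. The part of these sums in the C2 difference was not tested.

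Between the fractions sorted from ASC-treated rats, C2 was higher in EV+ than in the same-numbered EV- library 1.32-fold, 1.36-fold and 1.41-fold. The mean difference was 0.44 on the log2 scale (95% interval 0.17 to 0.72, SE 0.127). The groups did not overlap, and the exact permutation test gave its smallest possible value, p = 0.1 (two-sided, 3 against 3). Without pairing, the adjusted p was 0.783 (limma), and C2 was not called. Same-numbered EV+ and EV- libraries deviated together over the transcriptome, so the replicate number was also fitted as a block. With the block in the 10-library fit the SE was 0.0640 and C2 was called (adjusted p = 0.0463, limma), 1 of the 9 complement genes beside 0.0555% of all genes. In a blocked fit restricted to these 6 libraries, added after the data were seen, the adjusted p was 0.00401 (limma), and 2 of the 9 complement genes were called beside 0.544% of all genes. That fit still called C2 without pair 1, with a difference of 0.46 (adjusted p = 0.00721). Pair 1 holds the EV- library with the most lymphocyte transcripts. C2 also stayed called without pair 2 or pair 3 (adjusted p = 0.0895 and 0.0991). In pairs 2 and 3 Prf1 was also higher in EV- (51.4 and 24.5 CPM) than in EV+ (at most 10.5 CPM). Leaving out pair 1 thus kept a lymphocyte difference, and its part in the C2 difference was not tested. C2 in EV+ was 0.19 above GN (interval -0.12 to 0.49) and C2 in EV- was 0.26 below GN on the log2 scale (interval of the difference -0.56 to 0.05), and neither difference was called.

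Cfb, the protease of the alternative pathway convertase and the other gene called in that last fit, was at 133 and 77.7 CPM in control, 104 and 90.1 CPM in GN, 149, 103 and 117 CPM in EV+, and 121, 79.6 and 98.8 CPM in EV-. All groups overlapped, and control replicate 1 was above both GN libraries. Cfb differed between GN and control by -0.07 (95% interval -0.56 to 0.43, adjusted p = 0.957, limma). EV+ was above the same-numbered EV- library 1.23-fold, 1.29-fold and 1.18-fold, a mean difference of 0.30 (interval -0.10 to 0.70 without pairing). The call of Cfb (adjusted p = 0.0843) was made only in the blocked fit of the 6 libraries, not with the block in the 10-library fit (adjusted p = 0.841), and it was lost without any 1 of the 3 pairs (adjusted p = 0.268 to 0.494).

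**Figure D2:**
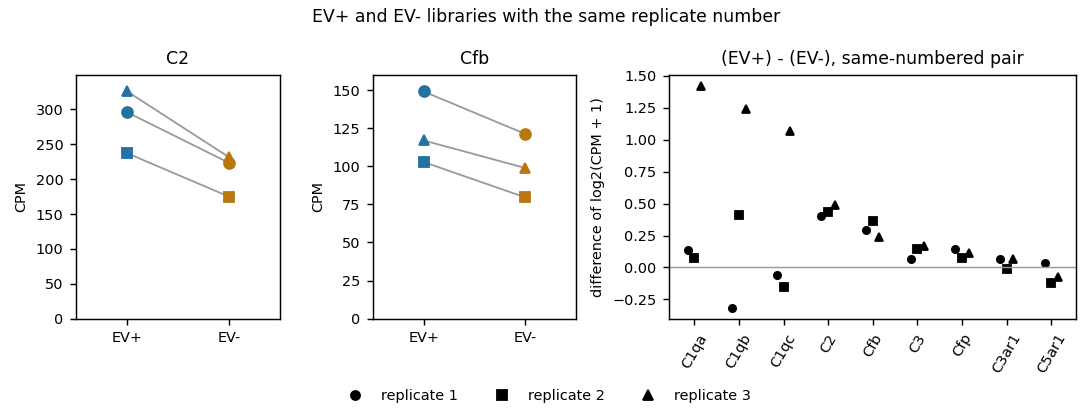
Left and middle, level in CPM (y axis, linear from 0) of C2 and Cfb in EV+ and EV- libraries, with lines joining libraries of the same replicate number. Right, difference of log2(CPM + 1), EV+ minus EV-, within each pair for the 9 genes. C1qa, C2, Cfb, C3 and Cfp lie above 0 in all 3 pairs, and pair 3 holds the largest difference of each C1q chain.

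The other members were also compared pair by pair. EV+ was above EV- in all 3 pairs for 5 of the 9 complement genes, C1qa, C2, Cfb, C3 and Cfp, against 13.7% of all genes. Complete separation of the 3 EV+ from the 3 EV- libraries held for C2 alone among the 9, against 4.25% of all genes. The C1q differences were uneven, since C1qa was 3.64-fold higher in EV+ in pair 3 but 1.12-fold and 1.07-fold in pairs 1 and 2. For C1qb the pair ratios were 0.766, 1.40 and 3.03. Without pairing, 0 of the 9 complement genes were called between EV+ and EV- by limma and 1, C2, had an unadjusted p under 0.05, while over all genes 0.0222% were called and 4.57% had an unadjusted p under 0.05. On the recovered reads 0 of the 9 were called by the likelihood-ratio test of edgeR, by DESeq2 or by the quasi-likelihood test of edgeR, beside 0.633% of all genes, 0.378% of all genes and 2 genes in all.

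C2 and Cfb are consecutive in RefSeq gene order and encode homologous proteases, so their ratio within each library was followed. C2 to Cfb was 1.06 and 1.56 in control, 2.63 and 2.51 in GN, 1.99, 2.31 and 2.79 in EV+, and 1.84, 2.20 and 2.34 in EV-. Both control libraries were below all nephritic libraries. The mean log2 ratio was 0.998 higher in GN than in control (exact permutation p = 0.333, two-sided, the smallest that 2 against 2 allows). It differed by 0.14 between EV+ and EV- (exact permutation p = 0.5). Within the 3 pairs the ratio was higher in EV+ each time, with an exact sign-flip permutation p of 0.25, the smallest that 3 pairs allow. The nearest measured genes on either side, Ehmt2 and Nelfe, averaged 64.2 ± 10.6 and 19.8 ± 2.03 CPM over the control libraries, against 56.7 ± 1.90 and 18.8 ± 1.87 CPM for GN (SD, n = 2), and neither was called in any comparison.

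**Figure D3:**
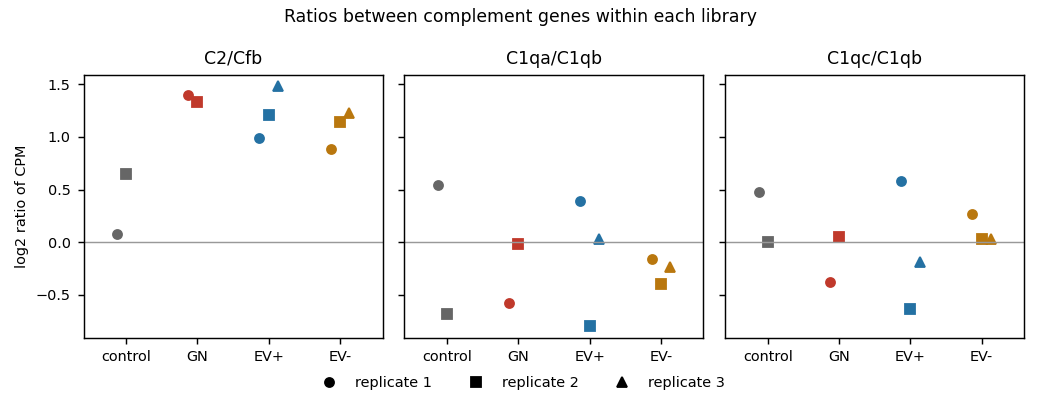
Log2 ratio of CPM (y axis) of C2 to Cfb, C1qa to C1qb and C1qc to C1qb within each library, by group (x axis), with symbols for replicate numbers. The C2 to Cfb ratio is lowest in the 2 control libraries, while the groups overlap in both C1q ratios.

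C3, the protein on which all activation routes converge, was at 436 and 463 CPM in control, 537 and 605 CPM in GN, 534, 616 and 531 CPM in EV+, and 509, 558 and 472 CPM in EV-. Each nephritic library was above both control libraries, and the nephritic groups overlapped. The difference was 0.34 in GN (95% interval 0.13 to 0.56, adjusted p = 0.159, limma), 0.31 in EV+ (interval 0.12 to 0.51, adjusted p = 0.108) and 0.19 in EV- (interval -0.01 to 0.38, adjusted p = 0.410), each against control. None of these was called by limma without the replicate block. With the block C3 was called in GN (adjusted p = 0.0304, beside 2.28% of all genes) and in EV+ (adjusted p = 0.0141, beside 4.21%) against control, comparisons whose replicate numbers did not pair the libraries. DESeq2 on the recovered reads also called C3 in GN (adjusted p = 0.0649, beside 3.27%) and in EV+ (adjusted p = 0.0407, beside 540 genes in all) against control.

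Cfp, the stabilizer of the alternative pathway convertase, was at 1078 and 1168 CPM in control, 1178 and 1172 CPM in GN, 1328, 1083 and 1302 CPM in EV+, and 1203, 1031 and 1204 CPM in EV-. Both GN libraries were just above control, and the ASC fractions spanned the range of the other groups. No Cfp difference between groups exceeded 0.14 on the log2 scale, and the smallest adjusted p was 0.558 (EV+ against control, interval -0.07 to 0.34, limma).

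The anaphylatoxin receptors were detected in every library. C3ar1, the receptor for C3a, was at 340.3 and 317 CPM in control, 353 and 377 CPM in GN, 384, 385 and 367 CPM in EV+, and 367, 389 and 351 CPM in EV-. All nephritic libraries were above control by a small margin. The largest difference was 0.20 in EV+ against control (95% interval 0.05 to 0.36, adjusted p = 0.205, limma). C5ar1, the receptor for C5a, was at 547 and 616 CPM in control, 593 and 629.6 CPM in GN, 655, 596 and 699 CPM in EV+, and 640.5, 649 and 737 CPM in EV-. GN and EV+ overlapped control and EV- did not, with a difference of 0.22 in EV- against control (interval 0.02 to 0.41, adjusted p = 0.310, limma). C5ar1 differed between EV+ and EV- by -0.06 (interval -0.23 to 0.11).

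**Figure D4:**
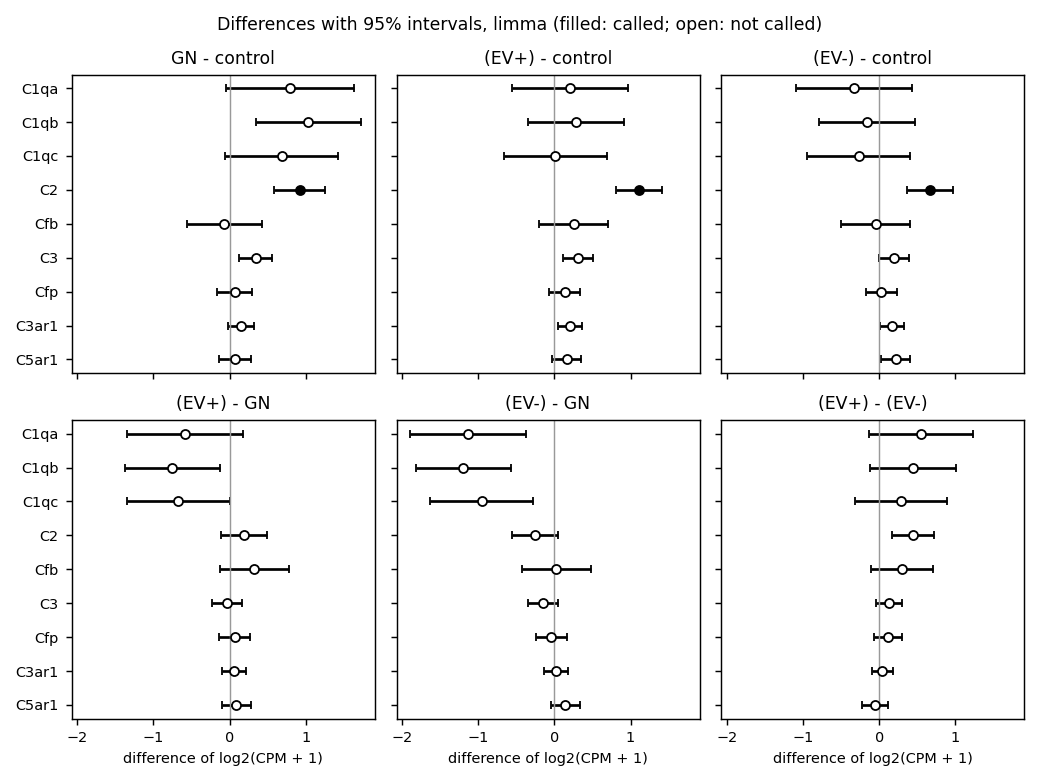
Difference of log2(CPM + 1) between groups (x axis) for the 9 complement genes (y axis) in 6 comparisons, with 95% intervals from limma; filled points passed an adjusted p under 0.1. C2 is filled in the 3 comparisons with control, at 0.92, 1.11 and 0.67.

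Counted over the 9 genes, 8 had a higher mean in GN than in control, and the median difference was 0.34, against -0.0001 over all genes. Every GN library was above every control library for 7 of the 9, against 21.9% of all genes. For EV+ this held for 3 of the 9 (C2, C3 and C3ar1), against 14.9%, and for EV- for 4 of the 9 (the same genes and C5ar1), against 15.0%. The median difference from control was 0.21 in EV+ and 0.03 in EV-. These counts share the 2 control libraries, and the chains of C1q contribute 3 of the 7.

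Against GN, no complement gene was called in either ASC fraction. In EV+ 0 of the 9 were called and 1, C1qb, had an unadjusted p under 0.05, while over all genes 0.122% were called and 7.13% had an unadjusted p under 0.05. The likelihood-ratio test of edgeR and DESeq2 called 0 of the 9, beside 0.478% and 0.455% of all genes, and the quasi-likelihood test of edgeR called 0 of the 9 and 9 genes in all. In EV- 0 of the 9 were called by limma and 3, the C1q chains, had an unadjusted p under 0.05, while over all genes 0.378% were called and 7.85% had an unadjusted p under 0.05. The likelihood-ratio test of edgeR and DESeq2 each called 1, C1qb (adjusted p = 0.0298 and 0.0551), beside 1.40% and 1.26% of all genes, and the quasi-likelihood test of edgeR called 0 of the 9 and 36 genes in all.

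The rest of the complement system was read from a list of 49 further genes, of which 23 had a row in the table. Of 7 genes of the classical and lectin start, Fcnb was called. The other calls were Cd59 among 5 regulators and Itgam among 8 receptors and C1q-binding proteins, while the 1 alternative pathway gene (Cfd) and 2 terminal pathway genes (C6 and C8g) gave none. Of the 23, 2 rose and 1 fell in GN against control (1.75% of all genes were called), 2 rose in EV+ (3.63%) and 1 rose in EV- (2.84%) against control, and 1 was higher in EV- than in GN (0.378%).

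Itgam, the CD11b chain of complement receptor 3, which binds C3 fragments, was at 418 and 388 CPM in control, 632 and 568 CPM in GN, 598, 641 and 560.2 CPM in EV+, and 580.4, 530.1 and 478 CPM in EV-. Every nephritic library was above control. Itgam rose by 0.57 in GN (SE 0.0998, adjusted p = 0.0126, limma), by 0.57 in EV+ (SE 0.0911, adjusted p = 0.00323) and by 0.39 in EV- (SE 0.0911, adjusted p = 0.0488), each against control. The cells were isolated with an antibody to CD11b/c, so the product of Itgam was part of the sort. The GN call was lost without control replicate 2 (adjusted p = 0.116) or GN replicate 1 (0.165), and the EV- call without either control library (0.142 and 0.361) or EV- replicate 1 (0.146). Its partner Itgb2, the common chain CD18, lay between 7132 and 8546 CPM over all libraries and was not called.

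Cd59, which blocks the membrane attack complex, was at 1462 and 1582 CPM in control, 1937 and 1911 CPM in GN, 1957, 1765 and 1929 CPM in EV+, and 1965, 1698 and 1858 CPM in EV-. All nephritic libraries were above control. Cd59 rose by 0.34 in GN (adjusted p = 0.0939, limma) and by 0.31 in EV+ (adjusted p = 0.0638), whereas 0.27 in EV- missed the threshold (adjusted p = 0.116). The GN call was lost without any 1 of the control or GN libraries, or without EV+ replicate 3, EV- replicate 1 or EV- replicate 3 (adjusted p from 0.105 to 0.479). The EV+ call was lost without any 1 of the control or GN libraries, or without EV+ replicate 1 or EV+ replicate 3 (adjusted p from 0.106 to 0.320), and it was also lost when only the groups compared were fitted (adjusted p = 0.198). Of the regulators at the cell surface, Cr1l lay between 214 and 252 CPM and Cd55 between 61.8 and 93.9 CPM, and neither was called.

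Fcnb, which encodes ficolin B, a lectin that can start the lectin pathway, was called in the opposite direction to Itgam and Cd59 in GN. It was at 129 and 127 CPM in control, 83.1 and 99.8 CPM in GN, 111, 102 and 113 CPM in EV+, and 139, 124 and 155 CPM in EV-. GN lay below every other library, and EV+ lay between GN and EV- with no overlap. In GN against control Fcnb fell by 0.48 (SE 0.117, adjusted p = 0.0747, limma) and was 0.60 higher in EV- than in GN (SE 0.106, adjusted p = 0.0339). The difference of -0.35 between EV+ and EV- was not called without pairing (adjusted p = 0.733) or with the block in the 10-library fit (adjusted p = 0.522). It was called in the blocked fit of the 6 libraries (adjusted p = 0.0436, limma), as the only one of the 23, and that call was lost without any 1 of the 3 pairs (adjusted p from 0.124 to 0.584). The GN call was lost without any 1 of the control or GN libraries, EV+ replicate 3 or EV- replicate 1 (adjusted p from 0.107 to 0.484). The EV- call was lost without GN replicate 1 (0.522) or EV- replicate 3 (0.102). Without the intensity trend of limma, Itgam remained called only in EV+ against control, and no call of Cd59 or Fcnb remained (adjusted p from 0.199 to 0.298).

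**Figure D5:**
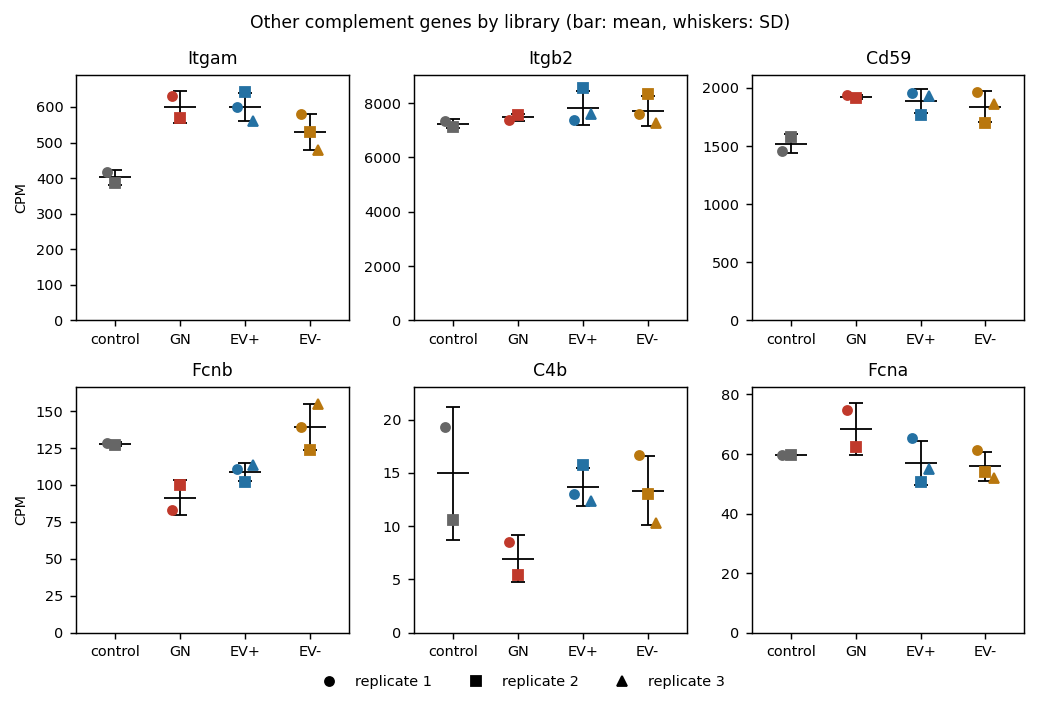
Level in CPM (y axis, linear from 0) of 6 further complement genes in every library, by group (x axis), with the mean (bar), SD (whiskers) and replicate symbols. Itgam and Cd59 are lowest in control, Fcnb and C4b are lowest in GN, and Itgb2 and Fcna show no called difference.

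The remaining genes of the list gave no call. Fcna, the other ficolin, lay between 50.8 and 74.7 CPM and the scavenger lectin Colec12 between 40.0 and 60.3 CPM. C4b, a component of the classical convertase, was at 14.9 ± 6.21 CPM in control, 6.93 ± 2.19 CPM in GN, 13.7 ± 1.78 CPM in EV+ and 13.3 ± 3.22 CPM in EV-, with a difference of -0.98 in GN against control (adjusted p = 0.152, limma). C4a, at 0.565 to 2.12 CPM, is a near-identical copy of C4b, so the assignment of reads between them is uncertain. Calr, a C1q-binding chaperone, lay between 477 and 705 CPM. The factor D gene Cfd lay between 0.577 and 3.62 CPM, and the terminal components C6 and C8g between 3.27 and 8.74 CPM and between 0.508 and 2.29 CPM.

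For each complement gene the genes with the most similar pattern were sought among 7193 genes with a mean of at least 5 CPM, by Pearson's r of log2(CPM + 1) over the 10 libraries, as a description. C2 was most like Tbxas1 (r = 0.961), which encodes thromboxane synthase, and Hpcal1 (r = 0.956). Cfb was most like Dtx3l (r = 0.972), a ubiquitin ligase gene, and B3galt4 (r = 0.925), and so had other neighbors in pattern than C2 (r between C2 and Cfb 0.454). C1qa and C1qc were most like each other, followed by Paox (r = 0.851 and 0.928), whereas C1qb was most like Laptm4b (r = 0.937) and Cdk20 (r = 0.903). C3 was most like Ubox5 (r = 0.948) and Ptprc (r = 0.937), the CD45 gene. Cfp was most like Popdc2 (r = 0.929) and Anxa7 (r = 0.929), C3ar1 was most like Calcrl (r = 0.980) and Prkx (r = 0.963), and C5ar1 was most like Lgals3 (r = 0.917), which encodes galectin-3, and Giot1 (r = 0.917). The 2 anaphylatoxin receptors were little alike (r = 0.219).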

How the data were processed

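Sorted splenic M2 macrophages were profiled with the SMART-Seq v4 and Nextera XT kits by paired-end sequencing. The authors aligned reads to rn6 with STAR (v2.5.3), counted them on RefSeq genes with HTSeq (v0.6.0, intersection-strict), removed genes with a maximum under 1 CPM and applied TMM normalization in edgeR. The deposited table holds this normalized signal, as CPM, for 9003 genes, of which 18 symbols had been turned into dates. All values were whole multiples of what a single read is worth (100%, within 0.1 read), so reads were recovered. A floor of 3 reads was 0.113 to 0.153 CPM and covers counting error only. The kit does not mark strand, so reads of antisense genes cannot be told apart. Gene lengths were not used, so ratios and sums over genes are in CPM and do not compare transcript numbers between genes.

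Because the values are normalized, limma (version 3.58.1, R version 4.3.3) was fitted to log2(CPM + 1) of all genes with an intensity trend over 4 groups, after a test on simulated data. Single ratios were tested with exact two-sided permutation tests. Alternatives were edgeR (version 4.0.16) and DESeq2 (version 1.42.0) on the recovered reads, RLE size factors, a pseudocount of 0.1, at least 1 CPM in at least 2 libraries, no trend, the replicate block, only the groups compared, and each library left out. Residuals of same-numbered EV+ and EV- libraries correlated at 0.203, 0.295 and 0.123, each best with its own number, against 0.0878 for control and GN. Pairing of EV+ and EV- was thus taken from the data, since the methods do not state it. The authors call the replicates biological. Each pair of replicates differed by more than sampling noise (chi-square per degree of freedom 13.4 to 45.4), which cannot tell biological from technical replicates. Each p-value of limma sets a difference against the spread between these libraries, pooled over the fitted groups and moderated over all genes. The genes and lists were chosen with earlier results of these data known. Genes beyond the 9 were named if called in a pairwise comparison or among the 3 of their role with the highest mean. C4a, C4b and the neighbors in the genome were named after their values were seen. A further gene of the list is not reported here.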

Additional observations from a re-analysis of the deposited data

How the results depend on the processing

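The direction of the C2 rise against control held in all alternatives run, and its calls were lost under the settings named beside them. Of the 9 complement genes, limma called 1 in GN against control, and the count was 2 by DESeq2 (C2 and C3), 2 with the replicate block (C2 and C3), 2 when only the groups compared were fitted (C1qb and C2), 0 without the intensity trend, and 0 to 2 with 1 library left out. In EV+ against control it was 2 (C2 and C3) by the edgeR likelihood-ratio test, by DESeq2 and with the replicate block, and 1 to 2 with 1 library left out. In EV- against control it was 0 without the trend and 0 to 1 with 1 library left out. In EV- against GN it was 1 (C1qb) by the likelihood-ratio test and by DESeq2. Among the 4 groups it was 2 by the likelihood-ratio test (C1qb and C2), 3 by DESeq2 (C1qb, C2 and C3) and 2 with the block (C2 and C3). Between EV+ and EV- it was 1 with the block, 2 in the blocked fit of these 6 libraries, 1 in that fit without any 1 pair, and 0 to 1 over all fits with a library or pair left out. The block changed no other call among the 9 genes. Where these alternatives give no shown reason, the cause was not tested.

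Differences that changed sign were uncalled throughout. C3 in EV+ against GN was 0.019 with the block, Cfp in EV- against control was -0.012 with the block, and C1qc in EV+ against control was -0.017 by both edgeR tests and -0.020 by DESeq2. With 1 library left out, Cfb ranged from -0.45 to 0.31 (GN), -0.13 to 0.64 (EV+) and -0.43 to 0.34 (EV-) against control, and from -0.13 to 0.17 in EV- against GN. C1qa ranged from -0.41 to 0.83 (EV+) and -0.96 to 0.28 (EV-), C1qb from -0.35 to 0.16 (EV-) and C1qc from -0.32 to 0.35 (EV+) and -0.61 to 0.082 (EV-) against control. C1qc ranged from -0.068 to 0.55 between EV+ and EV-, and was -0.11 without pair 3 in the blocked fit. C3 ranged from -0.11 to 0.058 in EV+ against GN, C3ar1 from -0.032 to 0.062 in EV- against GN, and Cfp from -0.078 to 0.034 in EV- against GN and from -0.032 to 0.10 in EV- against control. C5ar1 ranged from -0.012 to 0.16 in GN against control and from -0.11 to 0.0083 between EV+ and EV-. Over all genes limma called 158 in GN, 327 in EV+ and 256 in EV- against control, 11 in EV+ and 34 in EV- against GN, 2 between EV+ and EV-, and 231 among the 4 groups. In the same order the counts were 292, 516, 444, 43, 126, 57 and 616 by the likelihood-ratio test, 294, 540, 474, 41, 113, 34 and 543 by DESeq2, and 60, 186, 94, 0, 6, 0 and 93 without the trend. The block gave 30 in EV+ and 53 in EV- against GN, a fit of only the groups compared gave 155 in EV+ against control, and a pseudocount of 0.1 gave 4 between EV+ and EV-. With 1 library left out the counts were 34 to 214, 114 to 390, 95 to 388, 0 to 18, 7 to 42, 0 to 5 and 97 to 266.

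RLE size factors kept each of the C2 calls and lost that of Cd59 in GN against control. With 2 or 3 libraries a group and as few as 45 reads on a C1q chain, the C1q intervals are wide.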
